A study of Mus musculus with 16 samples.

Results

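The genes described here are 9 complement components and receptors, *C1qa*, *C1qb*, *C1qc*, *C3*, *C4b*, *Cfb*, *Cfp*, *C3ar1* and *C5ar1*, chosen by symbol from the 48432 genes of the deposited expression table. All 9 were in the table. They were measured by RNA-seq in mouse peritoneal macrophages (PM) taken 5 days after an injection of 3% thioglycolate and loaded with oxidized LDL (oxLDL) at 50 μg/ml for 48 h. The study asked what lipid droplet-associated hydrolase (LDAH) does to the transcriptome of such foam cells.

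The LDAH-Tg group came from mice whose LDAH transgene is driven by the promoter and intronic enhancer of *Csf1r*, so that it is expressed in myeloid cells. It was set against its own WT control, and the LDAH-KO group, from mice in which a targeting cassette replaced coding exons of *Ldah*, was set against a separate WT control. The transgenic line was made in B6D2F1 mice and then crossed with C57BL/6, the KO line was made in C57BL/6, and the labels give C57BL/6J for all 16 samples, 4 in each of the 4 groups. The genotype label of the WT control of LDAH-Tg also names ApoE, both lines were bred to *Apoe*-deficient mice in the study, and its text does not say which of these mice the sequenced PM were taken from. Age and sex of these mice were likewise not given in the sources used here.

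The table holds 1 mean per group, in TPM (transcripts per 1000000), which scale each transcript to its length and to the library total. No value per mouse, spread or depth can be seen, so no difference below has an error or a test. Differences are log2 ratios of 2 group means after adding 0.5 TPM to each, for genes with a mean of at least 1 TPM over the 2 groups, and a factor of 1.5 serves as a mark of size alone. *Ldah* had 124 TPM in LDAH-Tg PM, against 28.5 TPM in their WT control, and 27.9 TPM in LDAH-KO PM and 44.5 TPM in theirs. Macrophage transcripts were abundant in every group, with *Cd68* between 3023 and 4959 TPM and *Csf1r* between 94.2 and 108 TPM. The macrophage marker *Lyz2* had 10105 TPM in LDAH-Tg PM and was listed at 0 in the other 3 groups, so a 0 in this table may not mean an absent transcript. Neutrophil *Ly6g*, eosinophil *Epx* and mast cell *Mcpt4* were listed at 0 in all 4 groups, but other markers of the same cells were not. Neutrophil *S100a8* lay between 63.8 and 107 TPM and *Csf3r* between 13.7 and 24.4 TPM. Eosinophil *Siglecf* lay between 2.62 and 4.45 TPM, and mast cell *Cpa3* between 0.145 and 0.610 TPM. These values do not settle whether such cells were present.

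Complement is a cascade of plasma and tissue proteins that tag particles for uptake, call in leukocytes and lyse membranes. The classical pathway starts when C1q, built from the products of *C1qa*, *C1qb* and *C1qc*, binds antibody, apoptotic cells or modified lipoproteins, and it proceeds through C4 and C2 to the cleavage of C3. The alternative pathway amplifies C3 cleavage through factor B (*Cfb*), and properdin (*Cfp*) stabilizes its convertase. The cleavage fragments C3a and C5a act on myeloid cells through the receptors encoded by *C3ar1* and *C5ar1*, and macrophages are a main source of C1q in tissues.

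The members fell into a set of abundant transcripts and a set of rare ones. *C1qb* was the highest of the 9 in all 4 groups, with 519 TPM in LDAH-Tg PM, against 544 TPM in their WT control, and 461 TPM in LDAH-KO PM and 386 TPM in theirs. It ranked high among all genes too, with between 312 and 467 of the genes at or above 1 TPM exceeding it in each group. *Cfp*, *C1qc*, *C3ar1*, *C1qa* and *C5ar1* lay between 67.5 and 390.1 TPM. *C3* lay between 3.48 and 12.4 TPM, and *Cfb* and *C4b* were below 2 TPM in every group. The order was the same in LDAH-Tg PM and their WT control (*C1qb*, *Cfp*, *C1qc*, *C3ar1*, *C1qa*, *C5ar1*, *C3*, *Cfb*, *C4b*). In LDAH-KO PM and their WT control *Cfp* stood below *C1qc* and *C3ar1*, and *C5ar1* stood above *C1qa*, while *C1qc* exceeded *C3ar1* in LDAH-KO PM and *C3ar1* exceeded *C1qc* in the WT control. Whether neighbours in these orders differ beyond the spread between mice cannot be judged from means.

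**Figure D1:**
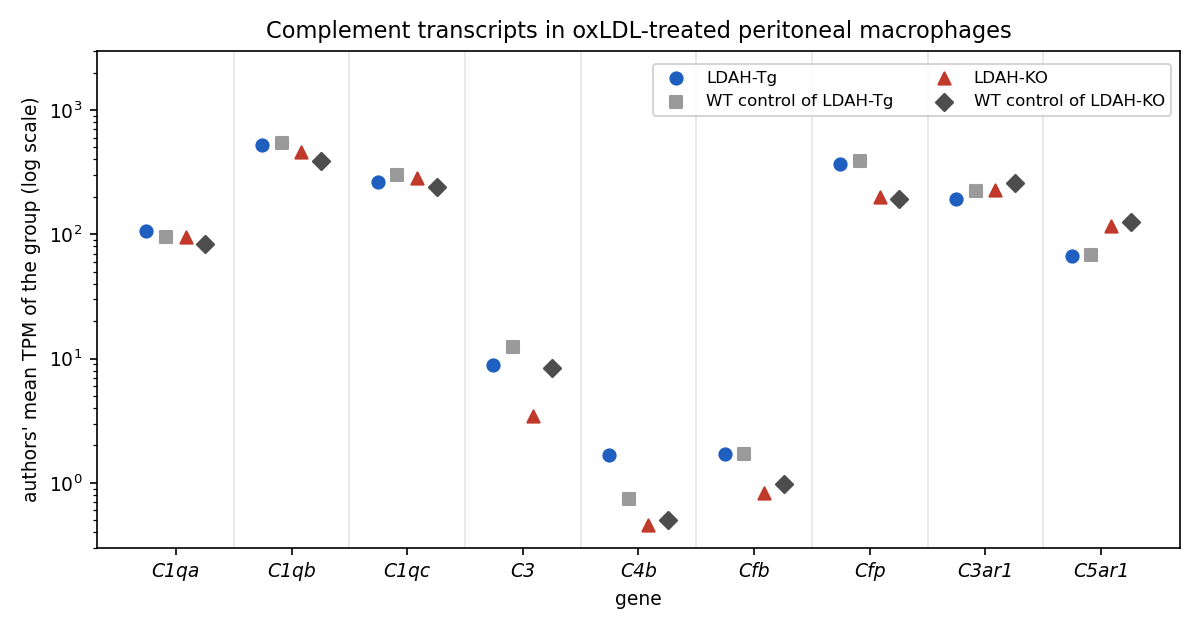
Group mean TPM (log axis) of the 9 complement genes in LDAH-Tg PM, their WT control, LDAH-KO PM and their WT control, 1 point per group mean with no error available. *C1qb* is highest in every group (386 to 544 TPM), and *C3*, *Cfb* and *C4b* are lowest.

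Between genotypes, 1 member passed the factor of 1.5 in each comparison. In LDAH-Tg PM against their WT control all 9 members could be compared, and *C4b* was higher by the factor while no member was lower, where 1.26% of all 11395 genes compared were higher and 0.685% were lower. In LDAH-KO PM against their WT control 7 of 9 members could be compared, since *C4b* and *Cfb* had means below 1 TPM. There *C3* was lower by the factor and no member was higher, where 1.83% of all 11289 genes compared were lower and 0.39% were higher. With quantile normalization, the split of all genes in this comparison was 80 higher and 134 lower, against 44 higher and 207 lower on the deposited scale. The members' median log2 ratio was -0.07 for LDAH-Tg and 0.05 for LDAH-KO, beside 0.0022 and -0.0754 over all genes compared. A single called gene of 9 or 7 is too few to set against these shares as a statement on the members together.

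**Figure D2:**
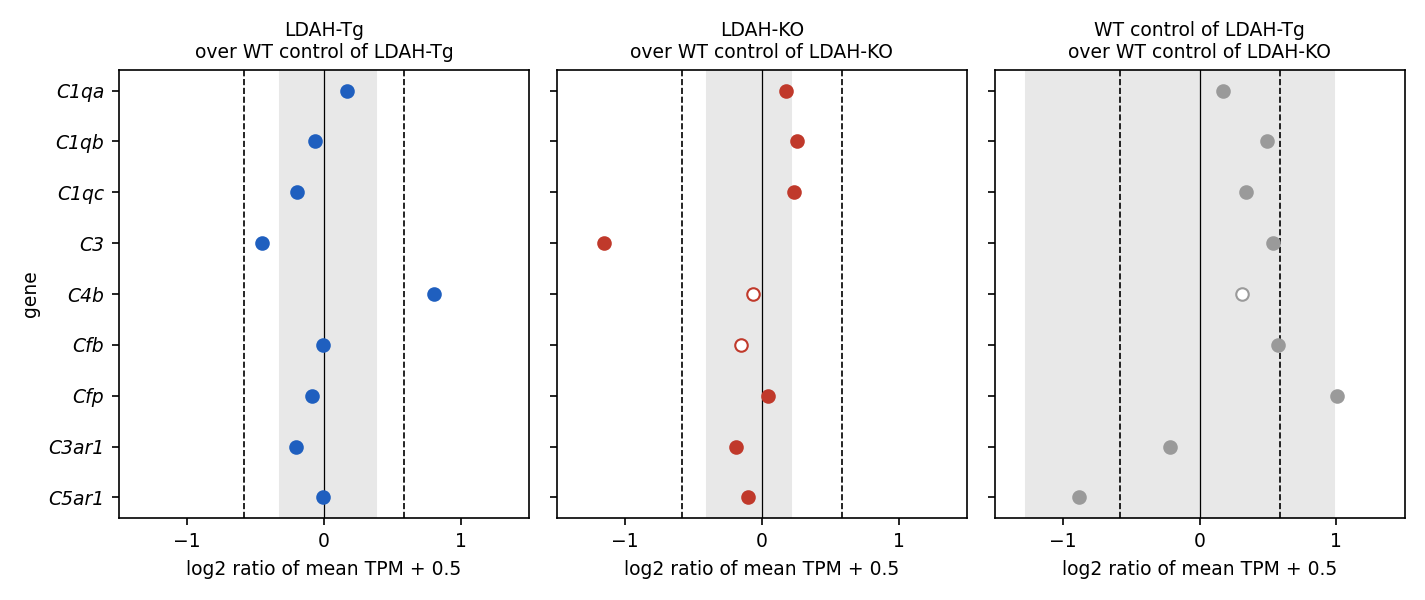
Log2 ratio of group mean TPM (0.5 added) of the 9 members in 3 comparisons, LDAH-Tg over its WT control, LDAH-KO over its WT control, and the WT control of LDAH-Tg over that of LDAH-KO. The grey band spans the 5th to 95th percentile of all genes compared, dashed lines mark the factor of 1.5 and open points are members below the mean of 1 TPM. *C3* in LDAH-KO PM (-1.16) and *C4b* in LDAH-Tg PM (0.80) are the members past the factor between genotypes.

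The 3 C1q chains lie side by side on chromosome 4 of GRCm38, all on the minus strand, within 18675 bases. *C1qb* (ENSMUSG00000036905.8) spans 136880129 to 136886187, *C1qc* (ENSMUSG00000036896.5) spans 136889804 to 136893065 and *C1qa* (ENSMUSG00000036887.5) spans 136895917 to 136898803. No stretch of 100 bases of any chain's transcripts was shared with another chain, so reads can be assigned to each. The RefSeq promoter windows of *C1qb* and *C1qc* (GRCm38.p6, 250 bases before to 50 after the start site) are shown because these chains had the highest ratios of the members compared in LDAH-KO PM, and that of *C3* because it had the lowest. The promoters used here held no window for *C1qa*, *C4b* or *Cfb*. Capitals mark matches, on either strand, to 3 short motifs bound by myeloid factors in other genes, GAGGAA (PU.1), TGCTGA (MAF half-site) and TTNNGNAA (C/EBP).
C1qb, chr4:136886151-136886450, minus strand: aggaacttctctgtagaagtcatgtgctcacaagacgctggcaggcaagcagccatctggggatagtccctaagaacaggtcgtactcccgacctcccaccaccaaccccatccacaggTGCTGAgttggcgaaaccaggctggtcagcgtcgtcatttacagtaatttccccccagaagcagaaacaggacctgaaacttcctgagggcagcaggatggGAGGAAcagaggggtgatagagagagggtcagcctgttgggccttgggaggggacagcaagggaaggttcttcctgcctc
C1qc, chr4:136892865-136893164, minus strand: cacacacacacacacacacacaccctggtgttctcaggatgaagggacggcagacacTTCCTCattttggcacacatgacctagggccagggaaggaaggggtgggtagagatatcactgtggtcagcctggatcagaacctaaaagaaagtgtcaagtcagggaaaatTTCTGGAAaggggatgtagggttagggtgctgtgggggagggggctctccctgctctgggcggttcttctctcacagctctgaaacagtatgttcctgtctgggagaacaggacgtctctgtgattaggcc
C3, chr17:57228087-57228386, minus strand: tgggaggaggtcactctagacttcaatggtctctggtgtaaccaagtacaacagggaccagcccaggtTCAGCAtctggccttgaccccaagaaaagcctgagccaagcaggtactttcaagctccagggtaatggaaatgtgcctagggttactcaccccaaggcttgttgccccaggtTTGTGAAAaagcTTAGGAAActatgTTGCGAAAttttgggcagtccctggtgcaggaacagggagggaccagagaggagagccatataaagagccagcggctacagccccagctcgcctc
The *C1qb* window held GAGGAA from position -30 and TGCTGA from -131, counted from the start site. The *C1qc* window held GAGGAA on the opposite strand from -193 and TTNNGNAA from -81. The *C3* window held TTNNGNAA at 3 positions, from -70, -58 and -45, and TGCTGA on the opposite strand from -182. Of all 32851 promoter windows, 28.3% held GAGGAA, 19.5% held TGCTGA, 40.7% held TTNNGNAA at least once and 3.6% held it at 3 or more positions. In the windows of *Cfp*, *C3ar1* and *C5ar1*, GAGGAA was found in *Cfp*, TGCTGA in *C3ar1* and *C5ar1*, and TTNNGNAA in *C5ar1*. A match is a run of letters and not evidence that a factor is bound in these cells.

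The C1q chains were higher in LDAH-KO PM than in their WT control, each by less than the factor of 1.5. *C1qa* had 94.8 TPM in LDAH-KO PM and 84.0 TPM in the WT control, a log2 ratio of 0.17. *C1qb* had 461 and 386 TPM (0.26), and *C1qc* had 281.5 and 239 TPM (0.23), in the same order of groups. The ratios of *C1qb* and *C1qc* lay above the 95th percentile of all genes compared, 0.2141. Of all genes compared, 7.28% had a higher ratio than *C1qa*, 3.5% than *C1qb* and 4.13% than *C1qc*. The chains share a locus and the same libraries, so they are not independent measurements.

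In LDAH-Tg PM the chains did not share a direction. *C1qa* had 106 TPM in LDAH-Tg PM, against 94.6 TPM in the WT control, a log2 ratio of 0.17, the same value as in LDAH-KO PM. *C1qb* had 519 and 544 TPM (-0.07), and *C1qc* had 264 and 303 TPM (-0.20). The sum of the 3 chains was 889.9 TPM in LDAH-Tg PM, against 941 TPM in their WT control, a log2 ratio of -0.08. It was 837 TPM in LDAH-KO PM and 709 TPM in their WT control, a log2 ratio of 0.24.

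The chains were unequal within each group although the protein holds them in equal numbers. *C1qb* made up 58.4% of the summed TPM in LDAH-Tg PM, 57.8% in their WT control, 55.1% in LDAH-KO PM and 54.4% in their WT control. *C1qa* made up between 10.1% and 11.9%. The ratio of *C1qb* to *C1qa*, on the TPM scale, was 4.89 in LDAH-Tg PM, against 5.75 in their WT control, and 4.87 in LDAH-KO PM and 4.60 in theirs. The share of *C1qc* was 29.7% in LDAH-Tg PM, against 32.2% in their WT control, and 33.6% in LDAH-KO PM and 33.7% in theirs, so that the makeup differed more between LDAH-Tg PM and their control than between LDAH-KO PM and theirs. Whether these gaps exceed the spread between mice cannot be seen.

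**Figure D3:**
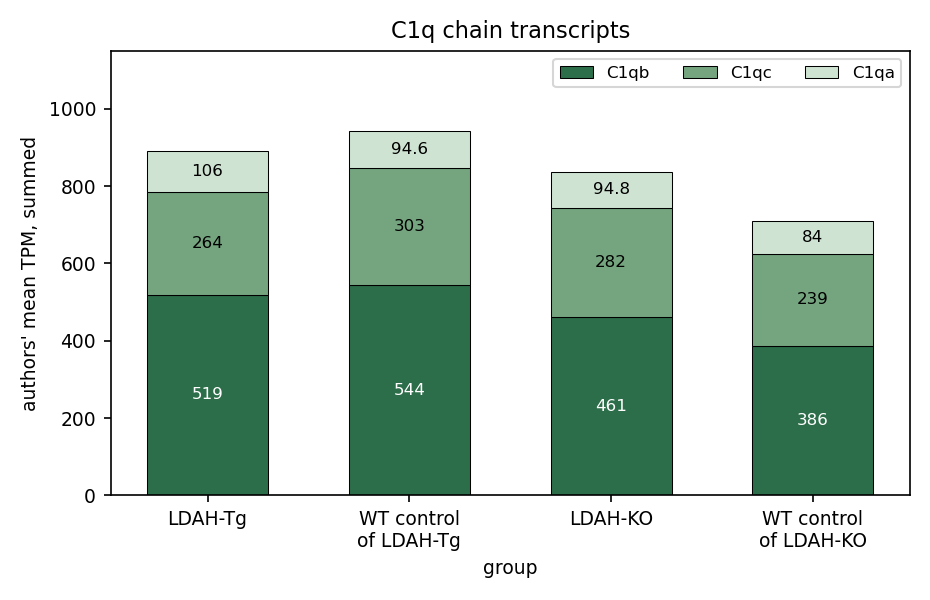
Stacked group mean TPM of *C1qa*, *C1qb* and *C1qc* in the 4 groups, with no error available. The sum is 889.9 TPM in LDAH-Tg PM, 941 TPM in their WT control, 837 TPM in LDAH-KO PM and 709 TPM in their WT control, and *C1qb* makes up 54.4% to 58.4% of it.

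*C3*, the component on which all pathways converge, had the largest difference between genotypes among the members. Its mean was 3.48 TPM in LDAH-KO PM and 8.38 TPM in their WT control, a log2 ratio of -1.16. Of the 11289 genes compared, 31 had a lower ratio, and 3.29% of the 2769 genes within a factor of 2 of its level passed the factor of 1.5 in either direction. In LDAH-Tg PM *C3* had 8.88 TPM, against 12.4 TPM in their WT control, a log2 ratio of -0.46 that did not reach the factor, and 1.8% of all genes compared had a lower ratio. *C3* was thus below its WT control in both genotypes. In these bulk samples, fewer cells of a type and less RNA per cell cannot be told apart. *C3* (ENSMUSG00000024164.15) lies on the minus strand of chromosome 17, from 57203970 to 57228136, and the microRNA gene *Mir6978* lies inside it.

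Markers of fibroblasts, and some of mesothelial cells, both of which can make *C3*, were also lower in LDAH-KO PM. Of 6 fibroblast markers 4 could be compared, and all 4 were lower by the factor of 1.5 (median log2 ratio -1.13). *Dcn* had 11.6 TPM in LDAH-KO PM and 19.8 TPM in the WT control, *Col3a1* had 1.61 and 4.75 TPM and *Pdgfra* had 1.83 and 4.74 TPM. *Col1a1* had 0.880 and 2.44 TPM, and it reached the mean of 1 TPM only through the WT control. Of 7 mesothelial markers 2 could be compared, and both were lower by the factor (*Wt1* 1.35 TPM in LDAH-KO PM and 2.75 TPM in the WT control, *Upk3b* 0.694 and 1.80 TPM), but *Upk3b* reached the mean of 1 TPM only through the WT control. Of the other mesothelial markers, too low to be compared, *Krt8* (0.698 TPM in LDAH-KO PM and 0.535 TPM in the WT control) and *Krt18* (0.760 and 0.644 TPM) had the higher mean in LDAH-KO PM. The summed level of the fibroblast list was 16.4 TPM in LDAH-KO PM and 32.4 TPM in the WT control, and that of the mesothelial list was 4.58 and 7.49 TPM. In LDAH-Tg PM the fibroblast sum was 23.8 TPM, against 23.2 TPM in their WT control, and the mesothelial sum was 8.50 and 7.89 TPM, while *C3* was lower there as well. Of the 4 fibroblast markers compared there, *Col1a1* was higher by the factor (5.44 TPM in LDAH-Tg PM, against 3.26 TPM). By RNA-seq and qPCR, the paper reports *Col1a1* as a macrophage gene raised in LDAH-Tg PM and lowered in LDAH-KO PM. The part of fibroblasts and mesothelial cells in the difference of *C3* was not tested.

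**Figure D4:**
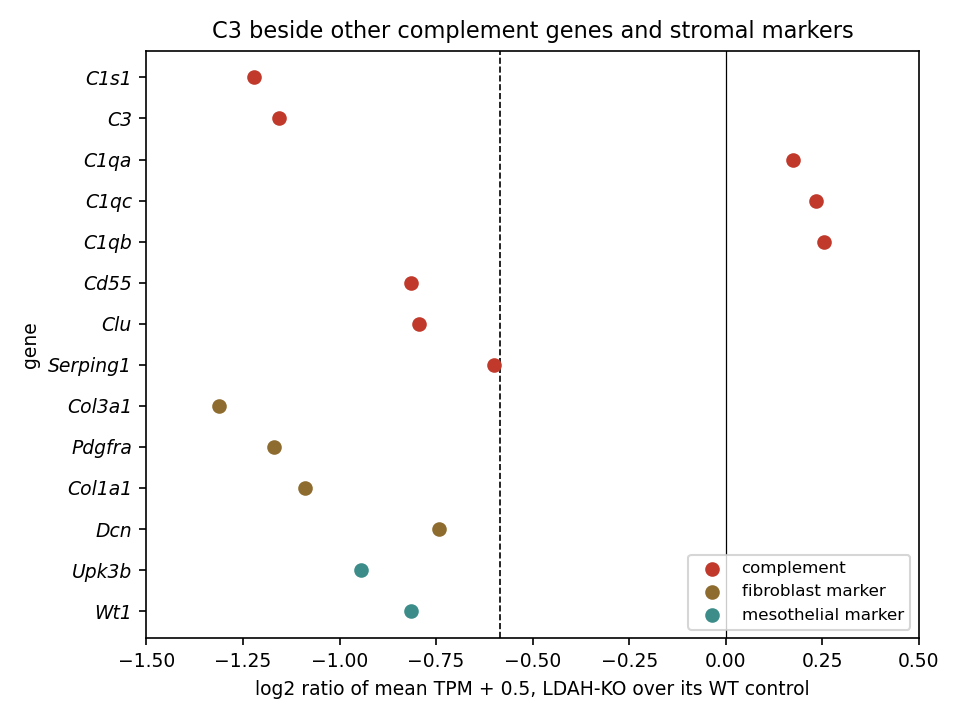
Log2 ratio of group mean TPM (0.5 added) of LDAH-KO PM over their WT control for *C3*, the other complement genes with the lowest ratios, the C1q chains, and the fibroblast and mesothelial markers with a mean of at least 1 TPM. The complement genes shown beside *C3* were chosen after their values were seen. *C3* (-1.16) and the markers shown lie below 0, and the C1q chains (0.17 to 0.26) lie above it.

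*C4b* encodes C4, which follows C1 in the classical pathway, and was the member with the highest ratio in LDAH-Tg PM. Its mean was 1.67 TPM in LDAH-Tg PM, against 0.743 TPM in their WT control, a log2 ratio of 0.80, and it reached the mean of 1 TPM only through the group where it was high. Of the 1279 genes within a factor of 2 of its level, 5.86% passed the factor in either direction and 1.49% had a higher ratio than *C4b*. In LDAH-KO PM *C4b* had 0.460 TPM, against 0.505 TPM in their WT control, and it was too low to be compared.

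*C4b* (ENSMUSG00000073418.4) lies on the minus strand of chromosome 17, from 34728380 to 34743882, and has a near copy, *C4a*. Their transcripts were identical at 96.1% of 5367 aligned bases in GENCODE M21, and 16.5% of the 100-base windows of *C4b* occurred in *C4a*, so counts of the pair are uncertain. The 60-base coding stretch with the most differences, 13, is shown because reads across it tell the copies apart. Capitals mark the bases that differ.
C4b, bases 2761 to 2820 of the transcript: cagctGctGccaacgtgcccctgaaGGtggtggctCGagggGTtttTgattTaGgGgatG
C4a, bases 2755 to 2814 of the transcript: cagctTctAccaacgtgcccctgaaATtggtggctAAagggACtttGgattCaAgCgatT
*C4a* had 1.71 TPM in LDAH-Tg PM, against 1.58 TPM in their WT control, a log2 ratio of 0.09. It had 0.214 TPM in LDAH-KO PM and 0.223 TPM in their WT control.

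*Cfb*, factor B, hardly differed in LDAH-Tg PM, with 1.69 TPM and 1.70 TPM in their WT control. It had 0.829 TPM in LDAH-KO PM and 0.976 TPM in their WT control, below the level for comparison. *Cfb* (ENSMUSG00000090231.10, minus strand of chromosome 17, 34856374 to 34862518) is overlapped by *Gm20547*, in which 81.0% of its 100-base windows also occurred, so its value is uncertain. *C2*, the classical counterpart of factor B, begins 85 bases away and shared none of these windows. *C2* had 0.814 TPM in LDAH-Tg PM, against 0.900 TPM in their WT control, and 0.618 TPM in LDAH-KO PM and 1.08 TPM in theirs.

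*Cfp*, which encodes properdin, the one positive regulator of the alternative pathway, differed little between genotypes. It had 367 TPM in LDAH-Tg PM, against 390.1 TPM in their WT control, a log2 ratio of -0.09, and 200.1 TPM in LDAH-KO PM and 194 TPM in theirs, a log2 ratio of 0.05. The difference between the lines was larger than either. *Cfp* (ENSMUSG00000001128.7) lies on the minus strand of chromosome X, from 20925454 to 20931555.

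Neither of the anaphylatoxin receptors passed the factor in either genotype. *C3ar1* had 194 TPM in LDAH-Tg PM, against 224 TPM in their WT control, a log2 ratio of -0.21, and 228 TPM in LDAH-KO PM and 261 TPM in theirs, a log2 ratio of -0.19. *C5ar1* had 67.5 TPM in LDAH-Tg PM, against 68.0 TPM in their WT control (-0.01), and 117 TPM in LDAH-KO PM and 125.5 TPM in theirs (-0.10). The value of -0.01 turned to 0.0024 with quantile normalization. The ratio of *C3ar1* to *C5ar1*, on the TPM scale, was 2.87 in LDAH-Tg PM, against 3.30 in their WT control, and 1.96 in LDAH-KO PM and 2.08 in theirs. Against *C3*, which encodes the precursor of its ligand C3a, *C3ar1* was higher by a TPM ratio of 65.6 in LDAH-KO PM and 31.1 in their WT control. The ratio was 21.9 in LDAH-Tg PM, against 18.1 in theirs. *C3ar1* (ENSMUSG00000040552.8) lies on chromosome 6, from 122847138 to 122856161, and *C5ar1* (ENSMUSG00000049130.6) on chromosome 7, from 16246743 to 16259540, both on the minus strand. *C5ar2*, a second C5a receptor 2588 bases from *C5ar1*, shared no 100-base window with it and had 5.54 TPM in LDAH-Tg PM, against 5.21 TPM in their WT control, and 3.25 TPM in LDAH-KO PM and 3.67 TPM in theirs.

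The WT controls of the lines differed more than the genotypes did. For the WT control of LDAH-Tg over that of LDAH-KO, 12.1% of 11404 genes compared were higher by the factor of 1.5 and 26.5% were lower. The median log2 ratio of all genes was -0.1746, and when scaled to a median of 0 the split was 2108 higher and 2087 lower, against 1377 higher and 3027 lower as deposited. Of 8 members compared, *Cfp* was higher by the factor (390.1 TPM in the WT control of LDAH-Tg and 194 TPM in that of LDAH-KO, a log2 ratio of 1.01) and *C5ar1* was lower (68.0 and 125.5 TPM, a log2 ratio of -0.88). *C1qb* (0.49), *C1qc* (0.34), *C3* (0.54) and *Cfb* (0.57) were higher without reaching it, and the median of the members was 0.42. Under median-ratio scaling or quantile normalization 4 members were higher by the factor. The differences of *Cfp* and *C5ar1* between the lines were larger than those between either genotype and its own control. The *Apoe* transcript had 7947 TPM in LDAH-Tg PM, against 8775 TPM in their WT control, and 10404 TPM in LDAH-KO PM and 9565 TPM in theirs. The genotype of *Apoe* was not tested. Line, strain background, *Apoe* status and any difference in when or how the samples were handled cannot be told apart here, so levels are compared within a line. The macrophage marker *Adgre1* also differed between the lines. It had 22.4 TPM in LDAH-Tg PM, against 33.1 TPM in their WT control, and 147 TPM in LDAH-KO PM, against 146 TPM in theirs. Of 6 macrophage markers compared between the WT controls, 3 were higher in that of LDAH-Tg and 3 were lower. Only *Adgre1* passed the factor, while *Cd68* was higher (0.58) and *Csf1r* slightly lower (-0.11). The part of *Adgre1* in the differences of the members was not tested.

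Of 42 other complement genes, 19 had a mean of at least 1 TPM over the 4 groups and 8 were listed at 0 in every group (*Mbl1*, *Mbl2*, *C6*, *C7*, *C8a*, *C8b*, *Cfd* and *Vtn*). These 8 included lectin-pathway starters, terminal components and factor D, most of which are liver or fat products. In LDAH-KO PM 18 could be compared, 4 were lower by the factor and 0 were higher, where 1.83% of all genes compared were lower and 0.39% were higher. The 4 lower genes were *C1s1*, a C1 protease (1.85 TPM in LDAH-KO PM and 4.97 TPM in the WT control, a log2 ratio of -1.22), *Cd55*, a membrane inhibitor of convertases (3.31 and 6.21 TPM, -0.81), *Clu*, a fluid-phase inhibitor of the terminal complex (1.66 and 3.25 TPM, -0.80), and *Serping1*, the C1 inhibitor (0.994 and 1.76 TPM, -0.60). *Serping1* reached the mean of 1 TPM only through the WT control, and it no longer passed the factor with a pseudocount of 1 (-0.47), median-ratio scaling (-0.54) or quantile normalization (-0.46). Their levels were low, and the fibroblast markers and the mesothelial markers *Wt1* and *Upk3b* were lower in the same group. The part of those cells in these differences was not tested. Of the 18, 14 had a ratio below 0, with a median of -0.21 beside -0.0754 over all genes. That all-gene median puts most genes below 0 as well. Of all genes compared, 43.6% had a ratio below that of *C5ar1* (-0.10) and 76.1% below that of *Cfp* (0.05). *Cd59a* and *Cd59b* were among those of the 18 that turned above 0 under median-ratio scaling and quantile normalization.

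In LDAH-Tg PM 20 of the 42 could be compared. Only *C8g*, a chain of the terminal component C8, was higher by the factor (1.95 TPM in LDAH-Tg PM, against 1.10 TPM in their WT control, a log2 ratio of 0.62), and 0 were lower, where 1.26% of all genes compared were higher and 0.685% were lower. The median was -0.07 beside 0.0022 over all genes, with 14 of 20 below 0. Of all genes compared, 48.5% had a ratio below that of *Cfb* (-0.004). *Fcna*, a ficolin that starts the lectin pathway, had 13.8 TPM in LDAH-Tg PM, against 18.6 TPM in their WT control (-0.41), and 27.8 TPM in LDAH-KO PM and 22.6 TPM in theirs (0.29).

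The receptors for C3 fragments were among the most abundant complement transcripts. *Itgb2*, the beta chain shared by complement receptors 3 and 4, had 978 TPM in LDAH-Tg PM, against 1210 TPM in their WT control, and 1324 TPM in LDAH-KO PM and 1542 TPM in theirs. *Itgam*, the alpha chain of receptor 3, had 110 TPM in LDAH-Tg PM, against 144 TPM in their WT control (-0.39), and 217 TPM in LDAH-KO PM and 273 TPM in theirs (-0.33). *Itgax*, the alpha chain of receptor 4, had 306 and 315 TPM in LDAH-Tg PM and their WT control (-0.05), and 296 and 406 TPM in LDAH-KO PM and theirs (-0.46). All 3 were below their WT control in both genotypes by less than the factor. A second, lower entry of *Itgam* (ENSMUSG00000108596.1) went the other way in LDAH-Tg PM, with 24.6 TPM, against 20.7 TPM in their WT control (0.25). In LDAH-KO PM that entry had 2.88 TPM, against 4.00 TPM in their WT control (-0.42). *Vsig4*, a receptor of resident macrophages for C3 fragments, was low, with 2.88 TPM in LDAH-Tg PM, against 2.98 TPM in their WT control, and 9.27 TPM in LDAH-KO PM and 8.65 TPM in theirs. *Cr1l*, the rodent membrane regulator Crry, had 83.1 TPM in LDAH-Tg PM, against 98.0 TPM in their WT control, and 131 TPM in LDAH-KO PM and 130 TPM in theirs. Between the WT controls, 18 of the 42 could be compared. In the WT control of LDAH-Tg, *Clu* (0.61) and *C1qbp* (0.73), a protein that binds the heads of C1q, were higher by the factor than in that of LDAH-KO. *Vsig4* (-1.40), *Itgam* (-0.92) and *C1s1* (-0.76) were among those lower, while the second entry of *Itgam* was higher (2.23).

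**Figure D5:**
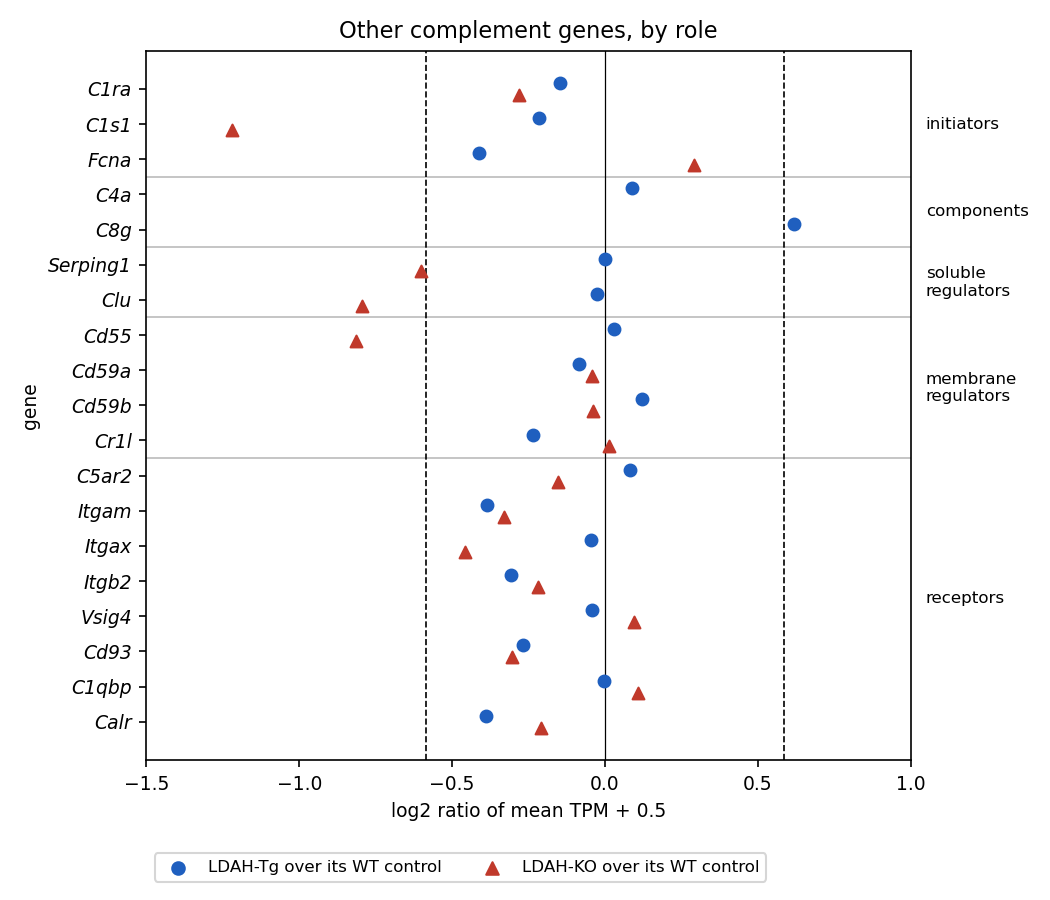
Log2 ratio of group mean TPM (0.5 added) of other complement genes with a mean of at least 1 TPM over a comparison, ordered by role, for LDAH-Tg over its WT control (blue circles) and LDAH-KO over its WT control (red triangles). Dashed lines mark the factor of 1.5, which *C8g* passes upward in LDAH-Tg PM (0.62) and *C1s1*, *Cd55*, *Clu* and *Serping1* pass downward in LDAH-KO PM.

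Profiles over the 4 group means were compared by the Euclidean distance of log2(TPM + 0.5) values after subtracting each gene's mean, over 11347 genes. The gene most like *C3* was *Fn1*, fibronectin, at a distance of 0.294, with 28.1 TPM in LDAH-Tg PM, against 29.8 TPM in their WT control, and 9.16 TPM in LDAH-KO PM and 21.5 TPM in theirs. *Rpph1* and *Adamtsl4* came next, at 0.337 and 0.368. The nearest genes of the other members were closer, from 0.0085 (*Dtwd2* for *C3ar1*) to 0.108 (*BC002163* for *C4b*), so *Fn1* was a loose match to *C3*. *Dtwd2* and *Tnfrsf21* were among the genes most like *C3ar1*. *C5ar1* was most like *Pptc7*, *Fyn* and *Prmt7*, and *Cfb* like *Cd68*, *Tdrd7* and *Ppfia1*. *Cfp* was most like *Gm15772*, *Trp53i13* and *C030034I22Rik*, and *C4b*, at its low level, like *BC002163*, *Sptbn5* and *Tada2a*. *C1qa* was most like *Cetn4*, *Rpl41* and *1810043G02Rik*, *C1qb* like *Ppcs*, *Gm14322* and *Fam213b*, and *C1qc* like *RP23-179K7.3*, *2610001J05Rik* and *Timm8a1*. The C1q chains were not each other's nearest profiles, as 737 genes were nearer to *C1qb* than *C1qc* was, at 0.229, and 604 were nearer to *C1qc* than *C1qb* was. These distances rest on 4 means per gene.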

How the data were processed

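RNA-seq libraries of 16 PM samples were made by the authors from poly(A)-enriched RNA. Their notes and methods name bcl2fastq 2.17.1.14, Trimmomatic, STAR 2.4.2a with GRCm38 (mm10), HTSeq, DESeq2 and Cuffdiff 2.2.1, and the tool that made the TPM values and the annotation release are not given in the sources used here. The deposited values are the authors' mean TPM of each of 4 groups for 48432 genes. A line with no gene, holding the total of 1000000, was left out. A symbol with several entries stands for its highest.

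Genes with a mean of at least 1 TPM over the 2 groups compared and no group at 0 were compared by the log2 ratio after adding 0.5. With means alone, the planned limma fit was not possible. The members, lists and tests were chosen with earlier results of these data known. All 9 members, complement genes of at least 1 TPM and up to 3 markers a list by level were eligible to be named. So were the chromosomal neighbours of members (among them *C2*) and the 3 most similar profiles per member. *Apoe*, *Col1a1*, *Krt8*, *Lyz2*, *Ly6g*, *Epx*, *Mcpt4* and the complement genes listed at 0 were named after their values were seen. Some eligible genes are not reported here, and counts of the lists include them. Coordinates and transcripts came from GENCODE M21 (GRCm38), promoters from RefSeq (GRCm38.p6), which had 6 of 9 members. The ratio and call steps were tested on simulated means with changes of a known size well past the factor. That check did not cover the lowest levels or the spread between mice. Python 3.11.15, numpy 2.4.6, pandas 2.3.3, matplotlib 3.10.9 and biopython 1.88 were used.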

Additional observations from a re-analysis of the deposited data

How the results depend on the processing

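No paired analysis was possible because the table holds only group means, and for the same reason the values without each replicate and with a replicate block were not run. Pseudocounts of 0.1, 1 and none, no filter, a minimum of 5 TPM, median-ratio scaling, quantile normalization and a smaller factor and a factor of 2 were tried. In LDAH-KO PM, *C3* was the 1 member lower in every setting, with a log2 ratio between -1.27 and -1.03, and the C1q chains stayed above 0 in all of theirs. In LDAH-Tg PM, *C4b* ranged between 0.61 and 1.17, but no member (0) was higher at a minimum of 5 TPM, which removed it, or at a factor of 2, and 1 was lower at the smaller factor. Among the other complement genes of LDAH-Tg PM, 0 were higher with a pseudocount of 1, a minimum of 5 TPM, quantile normalization or a factor of 2, and 4 were lower at the smaller factor. In LDAH-KO PM, 3 of them were lower with a pseudocount of 1, median-ratio scaling or quantile normalization, without *Serping1*, 0 at a minimum of 5 TPM and 1 at a factor of 2. Between the WT controls, the members higher numbered 2 with a pseudocount of 0.1 or none, 4 with median-ratio scaling or quantile normalization and 5 at the smaller factor, and 0 were lower at a factor of 2. The other genes higher there numbered 1 with a pseudocount of 1 or a minimum of 5 TPM, 5 with no filter or the smaller factor and 0 at a factor of 2, and those lower numbered 9 at the smaller factor and 2 at a factor of 2. Where the settings themselves do not show it, the cause was not tested. Depth is unknown, and means below about 2 TPM (*C4b*, *Cfb*, *C4a*, *C8g*, *Serping1*) are the least certain values.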
